A study of Homo sapiens with 12 samples.

Results

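CRE-deleted MDA-MB-231 cells were compared with WT cells for expression differences that were shared by the unstimulated and the stimulated state. MDA-MB-231 is a human breast cancer cell line of mesenchymal type. In the ΔCRE cells a segment of the ETS1 promoter that holds binding sites for NFAT and NF-κB had been deleted with Cas9 and a pair of guide RNAs, and WT cells carry the intact promoter. Cells of both genotypes were taken at 0, 6 and 24 h of PMA/Ionomycin (P/I), a phorbol ester with a calcium ionophore, in 2 biological replicates per condition. Of the 12 RNA-seq libraries, 11 entered the comparison, 6 WT libraries (2 per time point) and 5 ΔCRE libraries (1 at 0 h and 2 each at 6 and 24 h). The library labelled ΔCRE 0 h replicate 1 was left out because its profile stands apart, so the difference at 0 h rests on a single ΔCRE library. Features with a mean of at least 1 FPKM (fragments scaled to transcript length and to mapped fragments) over the 11 libraries were tested, 11256 of 24331. The genotype difference was estimated on log2(FPKM + 1) with limma, with the time point as a factor, and p-values were adjusted over all tested features.

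ETS1 is a transcription factor that binds GGAA-containing DNA and acts in invasion, angiogenesis and lymphocyte function. PMA activates protein kinase C and NF-κB, whereas Ionomycin raises calcium and activates calcineurin, which sends NFAT to the nucleus. A difference between ΔCRE and WT cells may be present before P/I, after it, or throughout. The main effect of the genotype averages over the time points, so a gene can pass without a difference at each of them. IL1B, for example, differed by −0.10 at 0 h and −1.72 at 6 h, and its main effect of −0.90 passed. How many clones stand behind the ΔCRE libraries is not stated, so deletion and clone cannot be told apart. The study calls the libraries of a condition biological replicates without saying how the cultures were kept apart, and the p-values measure the spread between these libraries.

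A stretch at the distances that the study gives for its deletion is shown as hg19 (GRCh37) has it on the strand of ETS1. The letters TTGGAA, the NF-κB site that the study mutated in its reporter, are in capitals. The NFAT letters TTTTAA that it mutated and its guide sequences do not occur in this stretch on either strand. Whether the stretch is the segment deleted in the cells is therefore not established. The study describes the deleted region by its distance from a transcription start that it does not name, and the ends of the deletion in the cells were not read here. Counted from 128392205, where 2 annotated ETS1 transcripts start, -540 to -270 is a stretch of 271 bases in intron 3 of the longest transcript, and it overlaps 0 annotated exons of ETS1.
ETS1 promoter, chr11:128392475-128392745, reverse strand: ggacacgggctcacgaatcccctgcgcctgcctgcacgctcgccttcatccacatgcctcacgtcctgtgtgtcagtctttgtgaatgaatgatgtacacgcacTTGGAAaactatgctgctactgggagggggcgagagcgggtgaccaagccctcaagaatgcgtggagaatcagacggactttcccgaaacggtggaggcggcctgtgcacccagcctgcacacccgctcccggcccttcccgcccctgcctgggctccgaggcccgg

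Promoters of 4 genes whose ΔCRE libraries lay outside all WT libraries are shown. NEO1 and CHRDL1 were below 0.5 FPKM in every ΔCRE library, and IGFN1 and ZNF239 were higher in ΔCRE cells. Each is the stretch of 250 bases before the gene's start in RefSeq, build GRCh38.p14, 5′ to 3′ on the gene's strand. Capitals mark the ETS letters CCGGAA and the AP-1 letters TGACTCA, each searched on both strands.
NEO1, chr15:73051652-73051901, forward strand: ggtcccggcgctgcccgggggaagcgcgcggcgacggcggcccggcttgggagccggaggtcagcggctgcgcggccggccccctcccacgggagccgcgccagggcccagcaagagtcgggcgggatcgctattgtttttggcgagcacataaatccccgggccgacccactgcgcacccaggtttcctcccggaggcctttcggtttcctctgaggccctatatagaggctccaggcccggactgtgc
CHRDL1, chrX:110795818-110796067, reverse strand: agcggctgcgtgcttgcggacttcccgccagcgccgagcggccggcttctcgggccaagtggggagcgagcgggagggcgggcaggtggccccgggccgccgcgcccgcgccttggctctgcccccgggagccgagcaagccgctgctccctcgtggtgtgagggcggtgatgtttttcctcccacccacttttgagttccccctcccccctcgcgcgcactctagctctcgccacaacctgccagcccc
IGFN1, chr1:201190574-201190823, forward strand: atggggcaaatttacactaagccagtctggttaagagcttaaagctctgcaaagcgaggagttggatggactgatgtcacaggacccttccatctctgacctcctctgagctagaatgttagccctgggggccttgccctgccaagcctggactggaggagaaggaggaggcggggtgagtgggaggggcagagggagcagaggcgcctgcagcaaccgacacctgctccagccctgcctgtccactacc
ZNF239, chr10:43574617-43574866, reverse strand: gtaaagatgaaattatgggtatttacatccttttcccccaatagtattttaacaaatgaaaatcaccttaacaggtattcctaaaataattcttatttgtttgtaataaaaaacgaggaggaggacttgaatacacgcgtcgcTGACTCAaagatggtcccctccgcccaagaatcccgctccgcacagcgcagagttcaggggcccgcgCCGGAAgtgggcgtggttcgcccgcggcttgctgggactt
Both sets of letters occur in the ZNF239 stretch and neither occurs in the other 3. These 4 are a selection. FSTL3 and GSTM1, also higher in ΔCRE cells, hold CCGGAA in the same window and are not shown. Among tested genes with 1 symbol, 8170 had a promoter in the table (250 bases before to 50 after the start), and 31.7% of these held CCGGAA and 2.90% held TGACTCA or its reverse TGAGTCA. Of 96 promoters of genes lower in ΔCRE cells by at least 0.5 on the log2 scale, 7 (7.29%) held CCGGAA, and of 25 promoters of genes higher by as much, 4 (16.0%) did. Of the 12 matched promoters of genes lower by at least 1, 0 held either set of letters. Across all 27305 promoters of the table the share with CCGGAA was 17.6%. These shares describe letters in a window, and they were not tested.

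ETS1 was lower in ΔCRE cells at each time point, which checks the genotype labels. The WT libraries held 24.0 and 23.7 FPKM at 0 h, 139.2 and 145.2 FPKM at 6 h, and 36.2 and 39.7 FPKM at 24 h. The ΔCRE libraries held 16.5 FPKM at 0 h, 62.8 and 62.2 FPKM at 6 h, and 29.3 and 30.7 FPKM at 24 h. No ΔCRE library reached a WT library of the same time point, and the levels of both genotypes overlap across time points because ETS1 peaks at 6 h. The main effect was −0.69 on the log2 scale (standard error 0.12, adjusted p = 0.00256, limma). The mean of the 3 within-time differences was −0.67 (p = 0.0093 in a two-sided exact permutation of genotype labels within each time, the smallest that it can give), and without ΔCRE 0 h replicate 2 it was −0.75 with an exact p of 0.056. The difference was −0.51 at 0 h, −1.17 at 6 h and −0.33 at 24 h, and it varied with time (interaction, adjusted p = 0.00811, limma). ETS1 is thus itself among the genes whose difference varied with time. Within 2 Mb of ETS1, 7 other genes were tested, and TMEM45B was lower in ΔCRE cells (−0.52, adjusted p = 0.000131, limma) while the adjusted p of the other 6 lay between 0.568 and 0.980.

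Of the tested features, 933 were higher and 1111 lower in ΔCRE cells over the 3 time points at an adjusted p under 0.05. These are 8.29% and 9.87% of all features tested, or 18.2% together. With the library labelled ΔCRE 0 h replicate 1 included, 57 were higher and 124 lower. Most of the differences were small. The median size was 0.258 on the log2 scale with a median standard error of 0.0521, and 47.7% were under 0.25. A size of at least 0.5 was reached by 39 higher and 151 lower features, and a size of at least 1 by 8 higher and 24 lower features. The median over all tested features was 0.0138. All 5 ΔCRE libraries lay above all 6 WT libraries in 89 features (0.791% of those tested) and below them in 160 (1.42%), whatever the time point. The ΔCRE libraries lay outside the WT libraries of the same time point, at each of the 3 time points, in 997 features above (8.86%) and in 1126 below (10%).

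CDH11, NEO1, CHRDL1 and NELL2 had the lowest main effects among genes whose ΔCRE libraries all lay below all WT libraries. CDH11 (chromosome 16, 64980683 to 65155919, hg19), a classical cadherin of mesenchymal cells, was 7.62 and 10.1 FPKM at 0 h, 14.3 and 12.5 FPKM at 6 h, and 20.7 and 22.2 FPKM at 24 h in WT cells. In ΔCRE cells it was 0.653 FPKM at 0 h, 1.13 and 1.16 FPKM at 6 h, and 1.75 and 1.93 FPKM at 24 h. CDH11 thus increased with the time of P/I in the libraries of both genotypes, at levels that did not overlap. Its main effect was −2.79 (standard error 0.083, adjusted p = 1.54e-08, limma). NEO1 (chromosome 15, 73344825 to 73597547), neogenin, a receptor for netrins and repulsive guidance molecules, was between 3.35 and 4.29 FPKM in the 6 WT libraries (median 3.81) and 0.20, 0.0682, 0.207, 0.129 and 0.0926 FPKM in the 5 ΔCRE libraries. Its main effect was −2.07 (standard error 0.068, adjusted p = 2.25e-08). CHRDL1 (chromosome X, 109917084 to 110039286), which encodes a secreted antagonist of BMPs, was between 2.25 and 3.11 FPKM in WT libraries, and was listed at 0 in 3 ΔCRE libraries and at 0.0267 and 0.0130 FPKM in the other 2. Its main effect was −1.83 (adjusted p = 2.91e-08). NELL2, a secreted glycoprotein known from neurons, was between 2.58 and 3.88 FPKM in WT and between 0.126 and 0.299 FPKM in ΔCRE libraries (−1.77, adjusted p = 3.59e-07). NEO1, CHRDL1 and NELL2 were the 3 genes below 0.5 FPKM in all libraries of 1 genotype and at least 2 FPKM in all others. The filter on mean FPKM holds more WT than ΔCRE libraries, 6 against 5, so a gene high in WT alone passes it more easily. In all 3 the genotype below 0.5 FPKM was ΔCRE. At these levels log2(FPKM + 1) understates a ratio, and no count stands behind a value listed at 0.

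**Figure D1:**
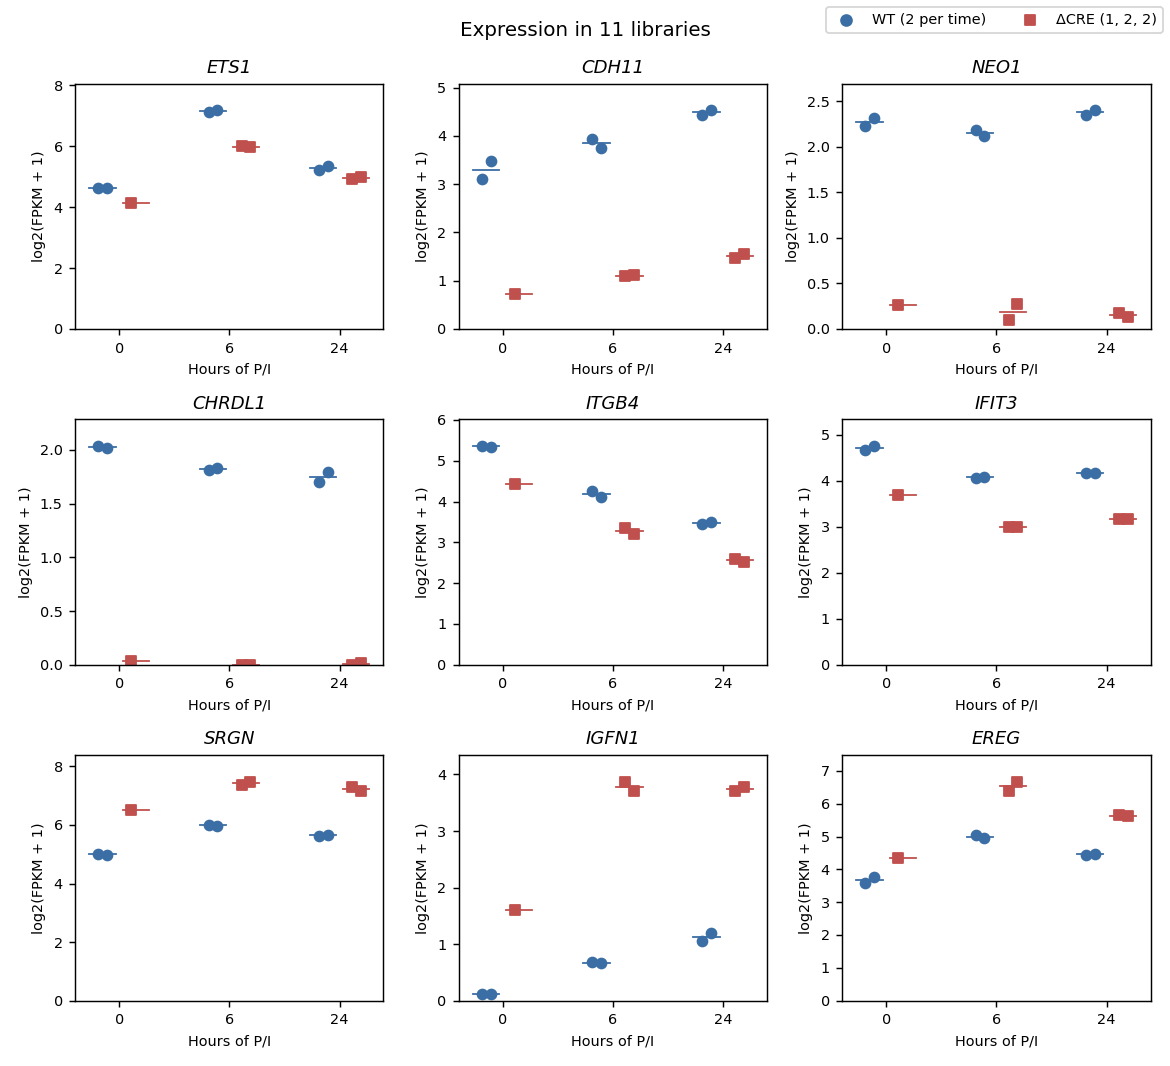
Expression of 9 genes on the log2(FPKM + 1) scale against hours of P/I. Circles are the 6 WT libraries, squares the 5 ΔCRE libraries, and bars the mean of each group. CDH11, NEO1 and CHRDL1 sit near the bottom in ΔCRE cells at each time point, ITGB4 and IFIT3 run below WT, and SRGN, IGFN1 and EREG run above WT.

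The other genes of this kind that were lower belonged to several functions. GMFG, a regulator of actin branching that is best known from leukocytes, was the most abundant of the 12 with the lowest main effects, with 67.8 and 52.5 FPKM at 0 h, 57.7 and 59.1 FPKM at 6 h, and 86.5 and 80.8 FPKM at 24 h in WT cells. The ΔCRE libraries held 22.8 FPKM at 0 h, 21.1 and 19.9 FPKM at 6 h, and 42.4 and 40.2 FPKM at 24 h (main effect −1.26, adjusted p = 7.78e-06). The highest ΔCRE library was therefore below the lowest WT library for GMFG. GLUL, glutamine synthetase, was lower by a main effect of −1.05, and CYP2J2, an epoxygenase of arachidonic acid, by −1.13. TMEM71 (−1.60), TEKT4P2, a pseudogene that shares sequence with its parent gene (−1.26), and ZG16B (−0.99) completed the group together with IFIT3 and OAS1. Among genes with a mean of at least 50 FPKM, ARHGDIB went from a mean of 283 FPKM in WT to 184 FPKM in ΔCRE libraries (−0.59). IGFBP7 (−0.70), a secreted binding protein of insulin-like growth factors, ADAM15 (−0.61), a membrane metalloprotease, and ISG15 (−0.61), a ubiquitin-like protein induced by interferon, were the other abundant genes. CST1 and CST4, a pair of secreted cystatins with similar sequences whose reads may be shared, had main effects of −2.84 and −1.39. They are named because of their values, since their levels rose so far with time that ΔCRE libraries at 24 h reached WT libraries at 0 h. CST1 was 63.1 and 69.0 FPKM in WT and 7.14 and 7.68 FPKM in ΔCRE libraries at 24 h.

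SRGN and IGFN1 had the highest main effects among genes whose ΔCRE libraries all lay above all WT libraries. SRGN (chromosome 10, 70847828 to 70864567), serglycin, a proteoglycan of secretory granules, was 31.4 and 30.7 FPKM at 0 h, 63.0 and 61.8 FPKM at 6 h, and 48.8 and 49.0 FPKM at 24 h in WT cells. In ΔCRE cells it was 89.5 FPKM at 0 h, 165.3 and 177.7 FPKM at 6 h, and 154.6 and 141.7 FPKM at 24 h. Both genotypes thus had their highest SRGN at 6 h, with the ΔCRE level above the highest WT level even at 0 h. The main effect was 1.51 (standard error 0.039, adjusted p = 5.93e-09, limma). IGFN1 (chromosome 1, 201159953 to 201198080), an immunoglobulin and fibronectin domain protein known from muscle, was between 0.0785 and 1.30 FPKM in WT libraries. In ΔCRE cells it was 2.02 FPKM at 0 h, 13.7 and 11.99 FPKM at 6 h, and 12.1 and 12.8 FPKM at 24 h (2.52, standard error 0.20, adjusted p = 2.11e-05). S100P, a calcium-binding protein, ranged from 6.44 to 11.7 FPKM in WT and from 14.6 to 20.1 FPKM in ΔCRE libraries (0.90, adjusted p = 0.000340). NR2F1, an orphan nuclear receptor, ranged from 12.7 to 14.8 FPKM in WT and from 20.1 to 22.9 FPKM in ΔCRE libraries (0.62, adjusted p = 1.09e-05). The level of NR2F1 differed little between time points in either genotype. GSTM1, a glutathione transferase with near-identical family members, was higher by 0.83, EPHX1, microsomal epoxide hydrolase, by 0.52, PTGR1, a prostaglandin reductase, by 0.50, and SLC7A11, the cystine transporter, by 0.49. PPAPDC1A (1.004), a lipid phosphatase, ZWINT (0.51), a kinetochore protein, ZNF239 (0.50), a zinc finger protein, and FSTL3 (0.49), a binder of activin, were the remaining genes.

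For these 24 genes the main effect is compared with the difference at each time point in the plot of differences by time. TEKT4P2 differed by −1.24 at 0 h, −1.25 at 6 h and −1.27 at 24 h, NR2F1 by 0.63, 0.66 and 0.57, and IFIT3 by −1.03, −1.07 and −0.99. ITGB4, the integrin β4 subunit, which is named with the study's genes, differed by −0.93, −0.91 and −0.92. The WT libraries held 40.3 and 39.4 FPKM of ITGB4 before P/I, 18.2 and 16.4 FPKM after 6 h, and 9.998 and 10.2 FPKM after 24 h, and the 5 ΔCRE libraries held 20.4, 9.17, 8.28, 5.06 and 4.71 FPKM. The level of ITGB4 thus fell with time in both genotypes while its log2 difference moved little. OAS1 ranged more widely, from −0.51 at 0 h to −1.41 at 6 h, and IGFN1 from 1.48 to 3.11.

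**Figure D2:**
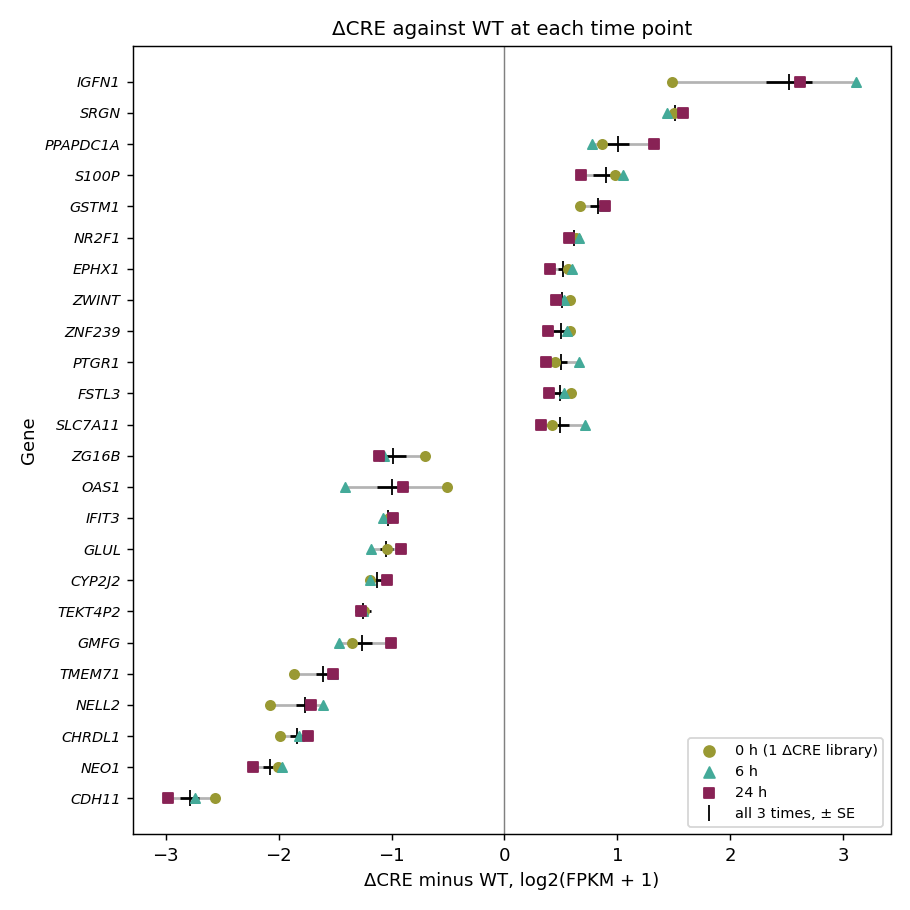
Difference between ΔCRE and WT cells on the log2(FPKM + 1) scale for the 12 highest and the 12 lowest genes whose libraries did not overlap between genotypes. Coloured symbols are the 3 time points and black marks the main effect with its standard error. All 24 genes lay on the same side of 0 at each time point, which the rule that chose them fixes. The symbols of TEKT4P2, NR2F1 and IFIT3 nearly coincide, while IGFN1 spread from 1.48 to 3.11.

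Over all features, the differences at single time points mostly had the direction of the main effect. Of the 2044 features past the threshold, 1996 (97.7%) had the same sign at all 3 time points, which the main effect in part fixes, since it is made from these differences. Among the 190 with a size of at least 0.5, 189 had 1 sign, 182 lay outside the WT libraries at each time point, and the median range of the 3 differences was 0.351. The interaction of genotype and time passed an adjusted p of 0.05 in 42 features (0.373% of those tested, 939 at an unadjusted p under 0.05, limma), of which 12 were small RNAs, and 15 of the 190 were among them. This count depends on the fit: 27 passed without WT 6 h replicate 2 or without WT 24 h replicate 2, 13 without the 0 h libraries, 4 with all 12 libraries and 68 without a filter on low values. A p that misses the threshold does not show that a difference is constant, and with 1 ΔCRE library at 0 h a change between 0 h and later times is poorly resolved.

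Libraries of separate time points were used to read the direction in samples that had not chosen the genes. In the 6 h libraries alone, 717 of 11004 features (6.52%) passed an adjusted p of 0.05, 247 higher and 470 lower. Of the 247, 96.0% were also higher at 24 h and 93.1% at 0 h, against 53.8% and 51.9% of all tested features. Of the 470, 93.0% were also lower at 24 h and 88.7% at 0 h, against 45.8% and 47.7% of all tested features. The median of the genes lower at 6 h was −0.51 there, −0.33 at 24 h and −0.27 at 0 h. In the 24 h libraries alone, 324 of 11324 features (2.86%) passed, 117 higher and 207 lower. Both counts depend on single libraries. Leaving out WT 6 h replicate 1, WT 6 h replicate 2, ΔCRE 6 h replicate 1 or ΔCRE 6 h replicate 2 gave 122, 107, 355 and 239 features at 6 h, and leaving out the WT replicates 1 and 2 or the ΔCRE replicates 1 and 2 at 24 h gave 116, 158, 120 and 102. Of the features called at 24 h, 95.7% of the higher and 97.6% of the lower had the same direction at 6 h, and 87.2% and 92.8% at 0 h. Of all tested features, 53.2% were higher and 46.6% lower at 6 h, and 51.5% and 48.2% at 0 h. Across the 11111 features that are not small RNAs, Pearson's r between the difference at 6 h and that at 24 h was 0.667, and over all 11256 features it was 0.224 (Spearman's correlation 0.579). These are correlations across genes, which are not independent replicates, and each point shares its transcript length and annotation between the axes.

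**Figure D3:**
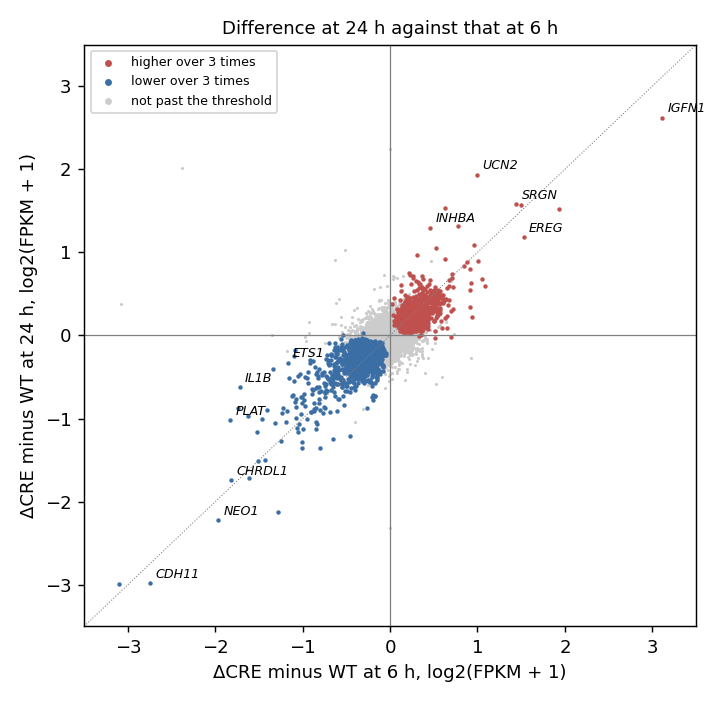
Difference between ΔCRE and WT cells at 24 h (vertical) against that at 6 h (horizontal), both on the log2(FPKM + 1) scale, for 11110 features that are not small RNAs (1 lies outside the axes). Features past the threshold over all time points are coloured by direction, and the dotted line marks equal differences. CDH11, NEO1 and CHRDL1 lie near this line at the bottom left and SRGN near it at the top right, while PLAT and IL1B lie above it and INHBA and UCN2 lie above it on the higher side.

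Genes of the interferon response were lower in ΔCRE cells without a member past the threshold in the other direction. Of 41 tested interferon-stimulated genes, 23 were lower, 0 were higher and 18 did not pass, with a median of −0.23 against 0.0138 over all tested features. The lower members are 56.1% of the list, against 9.87% of all features tested. IFIT3, of a family whose products bind viral RNA, had the lowest main effect of the list. It was 24.5 and 26.1 FPKM at 0 h, 15.8 and 15.9 FPKM at 6 h, and 16.9 and 16.9 FPKM at 24 h in WT cells, and 11.9, 6.97, 6.998, 8.01 and 8.06 FPKM in the ΔCRE libraries of the same order (−1.03, standard error 0.034, adjusted p = 2.25e-08, limma). IFIT2 (−1.02), IFIT1 (−0.93), OAS1 (−0.99) and OASL (−0.89), the last of the oligoadenylate synthetase family, and IFI44 (−0.83) followed. The transmembrane antiviral proteins IFITM2 (−0.56) and IFITM3 (−0.44), the RNA sensor gene DDX58 (−0.46) and the signalling factor IRF9 (−0.32) were lower as well. STAT2 (0.00) and IRF1 (0.02), which act in the interferon response as transcription factors, did not pass. Of the 41 genes, 4 lie in chromosome segments in which most genes were lower, and without them 19 genes were lower and the median was −0.22. With the left-out library included 7 passed the threshold as lower and 0 as higher, and the median was −0.21. Of 18 genes of MHC class I presentation, 1 was higher and 1 lower, or 5.56% each, below the 8.29% and 9.87% of all features tested.

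Genes of cholesterol synthesis were higher in ΔCRE cells. Of 30 tested genes of cholesterol and fatty acid synthesis, 20 were higher and 2 lower, with a median of 0.24. These are 66.7% and 6.67% of the list, against 8.29% and 9.87% of all features tested. HMGCS1, the synthase at the start of the mevalonate pathway, was 15.7 and 18.4 FPKM at 0 h, 24.8 and 25.2 FPKM at 6 h, and 45.8 and 51.1 FPKM at 24 h in WT cells. In ΔCRE cells it was 24.95, 35.0, 39.2, 61.8 and 67.2 FPKM in the same order of times (0.49, adjusted p = 0.000177, limma). CYP51A1 (0.42), IDI1 (0.41), HSD17B7 (0.40), MSMO1 (0.37) and NSDHL (0.35), enzymes of later steps, were higher too. The 2 lower genes, SREBF1 (−0.18), a transcription factor of lipid synthesis, and SCD (−0.17), the stearoyl-CoA desaturase, lie on segments of chromosomes 17 and 10 in which most genes were lower. FASN (0.14) and ACACA (0.05) of fatty acid synthesis did not pass. No tested member of the list reached a difference of 0.5. With the left-out library included 5 passed the threshold as higher and 0 as lower, and the median was 0.25.

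The 18 genes that the study names in these cells were all lower in ΔCRE cells, with a median of −0.85. Apart from ETS1, the targeted gene, the study chose them on these libraries, so their direction here is no independent evidence. The study also reports lower ETS1 by qRT-PCR and immunoblot, and ETS1 binding at the ENG and MMP14 promoters by ChIP. With the left-out library included 5 of 17 tested passed the threshold as lower, and the median was −0.83. The lowest after NEO1 was PLAT, tissue plasminogen activator, with a main effect of −1.16, followed by FZD8, a Wnt receptor (−1.04), and the proteases MMP13 and ADAM8 (both −1.01). EGFL7, a secreted angiogenic factor (−0.94), COL27A1 (−0.87), ENG, the TGF-β co-receptor endoglin (−0.86), COL12A1 (−0.85) and MMP14, a membrane matrix metalloprotease (−0.81), were also lower, as was ITGB4. Their values at single time points differed. EGFL7 (−0.81, −0.85 and −1.13 at 0, 6 and 24 h) and COL12A1 (−0.68, −0.90 and −0.92) were close to parallel, while PLAT (−0.36, −1.83 and −1.02) and ADAMTS9 (−0.35, −1.34 and −0.41) were lowest at 6 h. EGFL7, ENG, ADAM8 and SCARF1 lie in the stretches of chromosomes 9, 10 and 17 in which most genes were lower, and PLAT lies in a segment of chromosome 8 in which 12 of 23 features were lower.

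Among adhesion and matrix genes, members passed in both directions, and their shares are read against the 8.29% higher and 9.87% lower of all features tested. Among 8 tested cadherins and catenins, CDH11 was lower and CDH4, the retinal cadherin, was higher (0.34), 12.5% each and near the background. Of 11 integrin subunits 3 were lower, ITGB4, ITGA5 (−0.37) and ITGAE (−0.26), or 27.3%, and 0 were higher. Of 27 collagens and matrix proteins 7 were higher and 6 lower, or 25.9% and 22.2%. COL7A1, the anchoring fibril collagen, was higher by 0.92, with 0.952 and 0.882 FPKM in WT at 0 h and 5.48 and 5.14 FPKM at 6 h against 1.87 FPKM and 11.4 and 11.2 FPKM in ΔCRE libraries. COL13A1 (0.52) and LAMB1 (0.45) were higher too, whereas TNC, tenascin C (−0.58), and THBS1, thrombospondin (−0.40), were lower. Of 29 matrix proteases and inhibitors 8 were lower and 2 higher, or 27.6% and 6.9%. The higher genes were MMP1, a collagenase (0.39), and TIMP3, an inhibitor of metalloproteases (0.69), and the lower genes included CTSB, cathepsin B (−0.44). Of 34 axon guidance genes 6 were higher and 7 lower, or 17.6% and 20.6%, with L1CAM (0.38), EFNA5 (0.36) and EFNB2 (0.58) opposite to NEO1, ROBO4 (−0.64) and NRP2 (−0.61). SNAI2, a repressor of epithelial genes, was higher by 0.63 and ZEB2 by 0.27, whereas S100A4 (−0.79) and the lysyl oxidases LOXL1 (−0.37) and LOXL2 (−0.34) were lower, for 2 higher and 5 lower of 22 mesenchymal genes, or 9.09% and 22.7%. Of 23 keratins and epithelial genes 0 were higher and 5 lower, or 21.7%, among them CLDN7, a tight junction protein on chromosome 17 (−1.14), and KRT19 (−0.45). In the stretches of chromosomes 9, 10 and 17 in which most genes moved the same way lie 2 higher matrix genes, SRGN among them. The same holds for 1 lower integrin, 1 lower protease (ADAM8) and 1 lower epithelial gene (CLDN7). With the left-out library included, higher and lower members numbered 0 and 1 for cadherins, 0 and 0 for integrins, 3 and 2 for matrix proteins, 0 and 1 for proteases, 2 and 1 for axon guidance, 0 and 0 for mesenchymal genes and 0 and 1 for keratins and epithelial genes, whose median turned from −0.11 to 0.15.

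**Figure D4:**
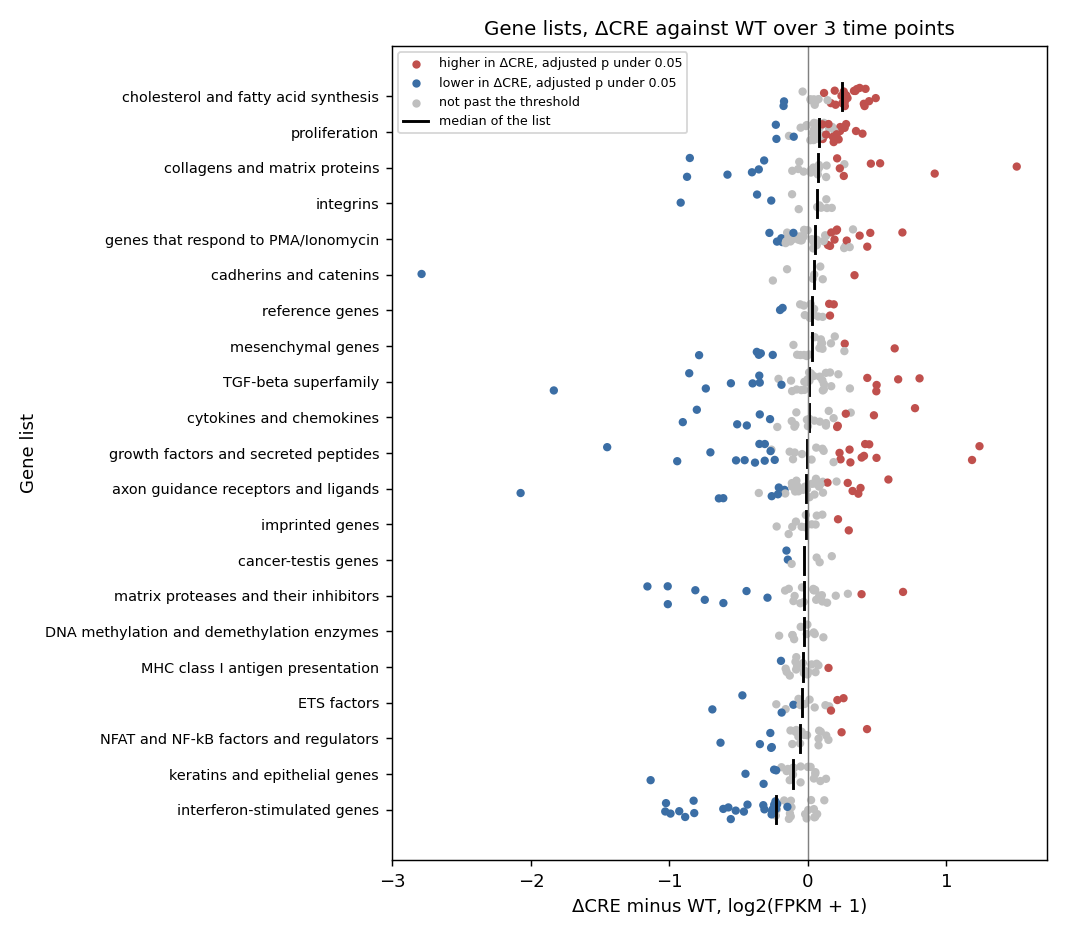
Main effect of the genotype on the log2(FPKM + 1) scale for each tested member of 21 gene lists, ordered by the median of the list (black bar). Coloured points passed an adjusted p of 0.05. The interferon-stimulated genes have the lowest median (−0.23), with coloured points to the left of 0 alone, and cholesterol and fatty acid synthesis has the highest (0.24).

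Secreted factors and cytokines were split as well. Of 32 growth factors and secreted peptides 11 were higher and 11 lower, 34.4% each against 8.29% and 9.87% of all features tested. EREG, epiregulin, a ligand of the EGF receptor, was 10.99 and 12.7 FPKM at 0 h, 31.8 and 30.1 FPKM at 6 h, and 20.7 and 21.2 FPKM at 24 h in WT cells, and 19.4, 82.1, 101.1, 49.5 and 48.2 FPKM in the ΔCRE libraries (1.18, adjusted p = 7.42e-05, limma). At each time point the ΔCRE libraries were above WT, and the ΔCRE library at 0 h was below the WT libraries at 6 h. UCN2, urocortin 2, was higher by 1.24, AREG, amphiregulin, by 0.41 and ADM, adrenomedullin, by 0.44. KISS1, the kisspeptin precursor, was lower by a main effect of −1.45, and IGFBP2 by −0.52. Of 37 genes of the TGF-β superfamily 5 were higher and 8 lower, or 13.5% and 21.6%. GDF15 was higher by 0.81 and TGFB2 by 0.50, while FSTL1 (−0.74), the latent TGF-β binding protein LTBP1 (−0.56) and the receptors TGFBR2 (−0.40) and BMPR1A (−0.35) were lower. Of 26 cytokines and chemokines 5 were higher and 6 lower, or 19.2% and 23.1%. IL1B (−0.90), CXCL1 (−0.80), IL24 (−0.51), IL6 (−0.44) and IL8 (−0.35) were lower, while CCL26 (0.77), IL11 (0.48) and IL18 (0.27) were higher. With the left-out library included, 1 growth factor was higher and 1 lower, 1 and 3 of the TGF-β superfamily, and 0 cytokines in either direction.

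Genes of the P/I response and of the factors that act on the deleted promoter differed modestly. Of 44 genes known to respond to PMA/Ionomycin 11 were higher and 5 lower, with a median of 0.05. The share of lower genes was 11.4%, near the 9.87% of all features tested, and that of higher genes was 25%, against 8.29%. EGR1, an immediate early transcription factor, was higher by 0.68, ATF3 by 0.45 and the phosphatase DUSP10 by 0.43, whereas SPRED3 (−0.28), FOSL2 (−0.22) and DUSP5 (−0.19) were lower. Of 23 NFAT and NF-κB factors and regulators 2 were higher, or 8.7%, as among all features, and 5 lower, or 21.7%. NFATC2, an NFAT factor, was 2.05 and 2.17 FPKM at 0 h, 5.25 and 5.45 FPKM at 6 h, and 3.67 and 3.64 FPKM at 24 h in WT cells, and 1.05, 2.62, 2.50, 2.19 and 2.66 FPKM in the ΔCRE libraries (−0.63, adjusted p = 0.000185, limma). At each time point it was lower in ΔCRE cells. The kinases IKBKB (−0.35) and CHUK (−0.27), which activate NF-κB, and TNFAIP3 (−0.26), which restrains it, were lower, and the calcineurin subunits PPP3CA (0.24) and PPP3CB (0.43) were higher. Of 16 ETS factors 3 were higher, or 18.8%, namely ELF4 (0.26), ELF1 (0.21) and ELK4 (0.17). The 4 lower ones, or 25%, were ETS1, SPDEF (−0.47), ETV6 (−0.19) and ETV5 (−0.10). Of the 7 NFAT and NF-κB genes that passed, 1 higher and 2 lower genes lie in the stretches of chromosome 10 in which most genes moved the same way. IKBKB lies in a segment of chromosome 8 in which 12 of 23 features were lower. With the left-out library included, 1 P/I gene was higher and 0 lower, 0 and 2 NFAT and NF-κB genes, and 0 ETS factors in either direction.

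Of 45 proliferation genes 14 were higher and 3 lower, or 31.1% and 6.67% against 8.29% and 9.87% of all features tested, with a median of 0.08 and no difference of 0.5 or more among them, and with the left-out library included 0 passed in either direction. Without the libraries whose column names carry a misprint, 9 were higher and 2 lower. The higher genes included CDK1 (0.39), the cyclins CCNE2 (0.35) and CCNE1 (0.27) and the reductase subunit RRM2 (0.28), and the lower ones were MKI67 (−0.23), AURKB (−0.23) and MCM4 (−0.10). Of 10 enzymes of DNA methylation and demethylation 0 passed in either direction, with a median of −0.03. Of 13 imprinted genes 2 were higher, or 15.4%, PEG10 (0.29) and MEST (0.22). Of 6 cancer-testis genes 2 were lower, or 33.3%, MAGEA6 (−0.16), which has near-identical family members, and MAGEC1 (−0.15). Of 16 reference genes 3 were higher and 2 lower, or 18.8% and 12.5%, with values from −0.20 (POLR2A) to 0.19 (YWHAZ).

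The differences were unevenly spread over the genome. Chromosome 10 held 100 higher and 172 lower features among 447 tested, or 22.4% and 38.5%, and chromosomes 9 and 17 held 141 and 157 lower features, or 30% and 23.02% of those tested. Of 257 segments of 10 Mb with at least 15 tested features, 10 had a median past 0.2 in size, and the quartiles of all medians were −0.00486 and 0.0496. On chromosome 10 from 60 to 80 Mb, 68 of 78 features were higher and 1 lower, with a median of 0.37, and this stretch holds SRGN, VDAC2, VCL, SAR1A, PPP3CB and CDK1. SRGN, at 1.51, lay above this median. From 90 to 110 Mb on the same chromosome 88 of 116 features were lower and 0 higher (median −0.27), among them IFIT3, IFIT1 and SCD, and from 120 to 140 Mb 46 of 57 were lower and 1 higher (median −0.25), among them ADAM8 and MKI67. PPAPDC1A was the higher gene there. On chromosome 9 past 130 Mb 103 of 158 features were lower and 2 higher (median −0.23), and on chromosome 17 below 20 Mb 124 of 183 were lower and 0 higher (median −0.22). The medians of these 5 stretches had the same sign at 0, 6 and 24 h, and lay between 0.32 and 0.39 for the higher stretch and between −0.16 and −0.30 for the lower stretches. The 5 stretches held 592 tested features, and with them 71 of the 933 higher and 362 of the 1111 lower features. Outside them 862 were higher and 749 lower among 10664 features tested. These include segments with medians just under 0.2 in size. On chromosome 1 from 220 to 230 Mb, which holds EPHX1, 30 of 55 features were higher and 0 lower (median 0.18). On chromosome 9 from 120 to 130 Mb 23 of 40 were lower, and on chromosome 10 from 110 to 120 Mb 16 of 28, with 0 higher in each (both medians −0.19). Chromosome 8 held segments with smaller medians. From 40 to 50 Mb, with PLAT and IKBKB, 12 of 23 were lower and 1 higher (−0.16). From 20 to 30 Mb, with LOXL2, 25 of 51 were lower and 1 higher (−0.16). From 10 to 20 Mb, with CTSB, 10 of 24 were lower and 0 higher (−0.12). The stretches and segments were picked by the same differences, so these counts describe them and are no test. The number of gene copies was not measured here.

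The sum of FPKM lay between 566255 and 651080 in the 11 libraries and the depth of each is unknown, since FPKM keeps no number of fragments. All 10 markers of MDA-MB-231 cells were expressed, with a summed level of 6004 to 8673 FPKM in WT and 6232 to 8948 FPKM in ΔCRE libraries. Of these 10, 1 was lower in ΔCRE cells and 0 were higher. Leukocyte markers summed to at most 2.45 FPKM, fibroblast markers to at most 3.31 FPKM and gut epithelium markers to at most 2.85 FPKM. CD3E, DCN, LUM, REG1A and VIL1 were at 0 in all 11. Of the 2 tested fibroblast markers 1 was higher in ΔCRE cells. Luminal and epithelial markers summed to 23.9 to 43.9 FPKM in WT and 23.01 to 39.0 FPKM in ΔCRE libraries, with CLDN4 between 15.7 and 33.5 FPKM and CDH1 at most 0.0319 FPKM, and 2 of the 5 tested markers of this list were lower in ΔCRE cells. Their part in the results was not tested. In bulk RNA, fewer cells with a transcript and less of it per cell cannot be told apart. In the library left out, 7 of the 12 highest genes were above all WT libraries and 3 were below them. Of the 12 lowest genes, 5 were below all WT libraries there and 6 were above them.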

How the data were processed

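The libraries hold RNA of MDA-MB-231 cells, WT or ΔCRE, before P/I and after 6 and 24 h of it. The authors prepared stranded mRNA libraries, mapped the sequences to hg19 with TopHat, estimated expression with Cufflinks and deposited a table of FPKM values, 1 column for each of 12 libraries. Annotation and scaling between libraries are not given in the sources used here. The 2 columns matched to ΔCRE 0 h replicate 2 and ΔCRE 6 h replicate 2 carry a misprinted character in their names and were assigned to the labels that no other column fitted. Of 24331 features 405 name more than 1 gene.

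From the deposited values, log2(FPKM + 1) of 11256 features with a mean of at least 1 FPKM over 11 libraries was fitted with limma 3.58.1 in R 4.3.3 (lmFit, eBayes with a trend), with time and genotype as factors, or with 6 groups for the interaction and the values at each time. Adjustment of p-values followed Benjamini and Hochberg, with a threshold of 0.05. On simulated data with 200 of 11256 features changed by 0.5, 93.5% were recovered with 1.58% of calls false; changed by 1, 98.0% and 4.39%. Depth is unknown, so no counting interval was computed. The members and gene lists were chosen with earlier results of these data known.

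Named genes were the 12 highest and 12 lowest main effects past the threshold with 1 symbol, no small RNA and no overlap between genotypes. By the same rule, the 5 highest and 5 lowest with a mean of at least 50 FPKM were named. Genes below 0.5 FPKM in every library of 1 genotype and at or above 2 FPKM in every library of the other were added. So were the 6 lowest p-values of the interaction, the study's genes, and up to 2 genes per direction from each list. Further list members, CST1, CST4, KISS1, TMEM45B and the marker genes were named after their values were seen. Alternatives were other pseudocounts, filters, scalings, sets of libraries and a replicate block. Promoters come from RefSeq (GRCh38.p14), and the ETS1 segment from GRCh37 with GENCODE. Values of a few list members are not reported here. The authors' own differential calls, the reads and copy number were not analysed here.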

Additional observations from a re-analysis of the deposited data

Results flagged for a closer look

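The difference between ΔCRE and WT cells varied between time points, by the interaction test in limma, in 11 of the named genes. TIGD1 (adjusted p = 2.84e-06) and ANKRD54 (adjusted p = 0.000291) rest on 1 library. TIGD1 was 61.9 FPKM in ΔCRE 0 h replicate 2 and between 1.78 and 3.26 FPKM in the other 10 libraries, and ANKRD54 was 72.4 FPKM there and between 8.71 and 14.0 FPKM in the others. In neither gene did the main effect pass (0.92, adjusted p = 0.273, and 0.71, adjusted p = 0.215), and the cause was not tested.

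In IL1B, PLAT, ADAMTS9, MMP13 and ETS1 the difference was lowest at 6 h. IL1B (adjusted p = 0.00340), the precursor of interleukin 1β, was 166.9 and 167.0 FPKM in WT and 52.8 and 47.2 FPKM in ΔCRE libraries at 6 h, against 325.8 and 330.5 FPKM and 220.2 and 205.8 FPKM at 24 h. PLAT (adjusted p = 0.00383) was 45.4 and 43.8 FPKM in WT and 12.6 and 11.1 FPKM in ΔCRE libraries after 6 h, and 25.2 and 23.9 FPKM against 12.2 and 10.9 FPKM after 24 h. ADAMTS9 (adjusted p = 0.0384) and MMP13 (adjusted p = 0.0392), both matrix proteases, differed by −1.34 and −1.63 at 6 h. ETS1 (adjusted p = 0.00811) likewise had its lowest value at 6 h, with −0.51, −1.17 and −0.33 at 0, 6 and 24 h.

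In the other 4 genes the difference was on the higher side after P/I and larger than at 0 h. INHBA (adjusted p = 0.00129), the activin βA subunit, was 0.493 FPKM in the ΔCRE library and 0.487 and 0.538 FPKM in WT libraries at 0 h, and 28.3 and 25.9 FPKM against 10.6 and 10.3 FPKM at 24 h. IGFN1 (adjusted p = 0.00438) differed by 1.48 at 0 h, 3.11 at 6 h and 2.62 at 24 h. TIMP3 (adjusted p = 0.0150) differed by 0.17 at 0 h, 0.92 at 6 h and 0.80 at 24 h, and UCN2 (adjusted p = 0.0172) by 0.56, 0.997 and 1.94. Each of these tests has 1 ΔCRE library at 0 h.

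A signal outside the comparison came from ΔCRE 0 h replicate 1 as the labels name it, a library that was not used. The 12 gut epithelium markers summed to 12120 FPKM there, against 1.40 to 2.44 FPKM in WT and 1.23 to 2.85 FPKM in the other ΔCRE libraries.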

How the results depend on the processing

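With all 12 libraries, 181 features passed for the main effect instead of 2044 (57 higher and 124 lower, 31.5% higher against 45.6%), and 4 for the interaction instead of 42. In that fit 68 of 104 named genes lost significance and 6 changed sign: S100A4 (0.48), KRT19 (0.43), CTSB (0.18), HLA-B (0.89), RPLP0 (0.039) and CANX (−0.091). Interferon-stimulated genes then had 7 lower and 0 higher, and cholesterol and fatty acid synthesis 5 higher and 0 lower. The medians of these lists were −0.21 and 0.25 in that fit. Medians of some other lists changed sign, among them cadherins and catenins (−0.13), integrins (−0.10) and keratins and epithelial genes (0.15). A minimum size of 1 left 32 features. Leaving out each library in turn gave 1524 to 2277 features for the main effect, 27 to 46 for the interaction, 107 to 355 at 6 h alone, 102 to 158 at 24 h alone, and −0.751 to −0.648 for ETS1, whose exact p was 0.056 (−0.751) without ΔCRE 0 h replicate 2, which has fewer arrangements. The interaction could not be fitted without that library. Over these fits TIGD1 ranged from −0.0956 to 1.10. It turned negative without ΔCRE 0 h replicate 2 and without the 0 h libraries (both −0.0956), and without the 2 libraries with misprinted names (−0.042). Without the 0 h libraries 13 features passed for the interaction, and without a filter 68 did. Omitting the 2 libraries with misprinted names, chosen after seeing the data, left 1502 features for the main effect, 21 lower interferon-stimulated genes and 15 higher genes of cholesterol and fatty acid synthesis.

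Same-numbered libraries did not deviate together in every pair of groups. Over 10 pairs of groups the correlation of deviations, across genes, was between −0.0676 and 0.202, and 2 were over 0.1. With the replicate number as a block, 2266 features passed for the main effect, 85 for the interaction, 591 at 6 h alone and 1947 at 24 h alone, and no named gene changed its call for the main effect. TPM scaling left 1886 features (40.5% higher) and quantile normalization 2030, and the median of all features stayed within 0.01 of that with FPKM. With TPM ELK4, with quantile normalization CANX, and without a filter SREBF1 fell short of the threshold. Leaving out a library ended the call, in at least 1 fit, of PIK3CG, SREBF1, MAGEC1, SDHA, ELK4 and MMP1, among others. The 24 genes with the highest and lowest main effects kept their call in each fit that left out 1 library. FPKM gives no depth, so the noise of low values could not be set.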
